A study of Mus musculus with 8 samples.

Results

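Expression of 9 genes of active DNA demethylation and base excision repair was examined in the brain of Tet1 KO mice: Gadd45a, Gadd45b, Gadd45g, Tdg, Ung, Smug1, Neil1, Parp1 and Xrcc1. They were chosen by name, as the steps that follow oxidation of 5-methylcytosine, with earlier results of these data known. Every non-control array probe carrying any of these gene names was taken, which gave 12 of 39429 probes. All 9 genes were among the 16773 genes tested. Tdg had 3 probes, Smug1 had 2 and each of the others had 1. The groups were cortex of Tet1 KO mice, cortex of wild-type (WT) mice, hippocampus of Tet1 KO mice and hippocampus of WT mice, with 2 samples each. All mice were naive and of the background given as 129 C57BL6. The labels do not give their age, the part of Tet1 that was removed, or whether the 2 samples of a group came from separate animals. Nor do they say whether cortex and hippocampus of the same replicate number came from the same animal. P-values here cover the spread among these samples and nothing beyond it. Each array carried a KO sample in Cy5 and a WT sample of the same tissue in Cy3, and no dyes were swapped, so genotype and dye cannot be told apart in a KO to WT ratio of a probe.

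TET dioxygenases oxidise 5-methylcytosine in DNA to hydroxymethyl-, formyl- and carboxylcytosine. The glycosylase encoded by Tdg excises the formyl and carboxyl forms. The gap is then closed by base excision repair, in which Parp1 senses the strand break and Xrcc1 is the scaffold for the repair enzymes. The small GADD45 proteins are stress-inducible and have been described as adaptors that bring repair enzymes to methylated DNA, and Gadd45b and Gadd45g are known as genes that neurons induce on activity. Ung and Smug1 encode uracil glycosylases, and Neil1 encodes a glycosylase for oxidised bases that can act after TDG.

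The probes below carry the results that follow. Each line gives a stretch of 30 bases of the probe as printed on the array, and all but the Ung line start at the first base of the probe. The single Gadd45g probe and the single Neil1 probe had the lowest KO to WT ratios among the brightest probes of the 9 genes. The 3 Tdg probes are shown because 1 of them was well above background in both genotypes and the others in KO alone. The Ung probe is shown from base 11 to base 40 because it runs into a GT repeat, given in capitals, that makes up 34 of its 60 bases.
Gadd45g: acttagccgactgcactgctctttcaaaaa
Neil1: aacagtctgaaggggccggcctccaacaaa
Tdg, brightest probe (A_55_P2044091): acgcaaagaagatggctgttaaggaagaaa
Tdg, probe A_55_P2121364: ggcgttctcattaaataatactgagatttt
Tdg, probe A_66_P116265: cctccccactggaaacctgaggatggctta
Ung: agttagagatttcaaaGTGTGTGTGTGTGT
In mouse build mm9, as the files give positions, the Gadd45g probe lies on chromosome 13 at 51943733 to 51943792 and the Gadd45a probe on chromosome 6 at 66985376 to 66985435. The Neil1 probe lies on chromosome 9 at 56991288 to 56991347, the Ung probe on chromosome 5 at 114588731 to 114588790 and the brightest Smug1 probe on chromosome 15 at 102984194 to 102984253. The Xrcc1 probe lies on chromosome 7 at 25358268 to 25358327, and the Parp1 probe spans 182530341 to 182530639 on chromosome 1. The Gadd45b probe (80394367 to 80394426) and the brightest Tdg probe (82110701 to 82110760) lie on chromosome 10, which also holds Tet1, 18.1 and 19.8 Mb from the Tet1 probe. Which parental strain this segment came from in KO and in WT mice is not given in the labels, and its part in the ratios of these genes was not tested. Each probe is listed with a transcript. No annotation of mm9 was used here to check that the probes lie in exons, or to separate coding from untranslated exons.

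Of the non-control spots, 66.6% to 67.2% were well above background in the KO channel (Cy5) and 49.7% to 51.7% in the WT channel (Cy3). Negative controls had median signals of 79.3 to 80.8 in KO and 246.7 to 263.2 in WT, so weak signals were resolved better in KO. The targeted gene had a log2 ratio of -0.18 ± 0.05 (SE, limma adjusted p = 0.0812) over both tissues. This is the ratio of the brightest Tet1 probe. Whether that probe lies in the removed part is not known from the labels, so its ratio cannot check the genotype. Of 9 cortex markers, 5 were called higher and 2 lower in cortex than in hippocampus in KO, and 6 higher and 1 lower in WT. Of 10 hippocampus markers, 9 were called lower and 1 higher in cortex in KO, and 8 lower and 0 higher in WT. In bulk tissue, fewer cells of a type and less RNA per cell cannot be told apart.

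Of the Gadd45 genes, Gadd45g was lower in KO on all 4 arrays, with a mean level of 0.66 times that in WT. Gadd45b was below WT on all 4 arrays by amounts that varied from array to array, and Gadd45a was not called. The signal of Gadd45g, on the log2 scale after normalisation within and between arrays, was 13.08 and 13.23 in KO cortex, against 13.78 and 13.88 in WT cortex. It was 13.29 and 13.40 in KO hippocampus, against 13.76 and 13.99 in WT hippocampus. KO and WT did not overlap in either tissue, nor over all 8 samples. Gadd45g fell by 0.60 ± 0.05 on the log2 scale over both tissues (SE, 4 arrays, limma adjusted p = 0.0221, 95% interval -0.73 to -0.47). Its absolute ratio exceeded that of 98% of the genes tested. Within cortex the ratio was -0.67 ± 0.07 (adjusted p = 0.0759) and within hippocampus -0.53 ± 0.07 (adjusted p = 0.0715), neither of which passed. When arrays were centred on their medians in place of loess, the mean of both tissues was -0.34 (limma adjusted p = 0.00289). That setting called 62.7% of all genes in this comparison. The call of Gadd45g was kept in 9 of 14 alternatives.

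Gadd45b had log2 signals of 10.80 and 10.76 in KO cortex, against 10.87 and 11.26 in WT cortex. In KO hippocampus it had 10.64 and 10.58, against 10.76 and 10.88 in WT hippocampus. The KO samples lay below the WT samples in both tissues, but the gap on the first array of each tissue was small. The ratios per array were -0.07 and -0.51 in cortex and -0.12 and -0.30 in hippocampus, and the mean over both tissues was -0.25 ± 0.09 (limma adjusted p = 0.132, 95% interval -0.48 to -0.01). A list of 25 activity-regulated genes, among them Fos, Arc and Npas4, had median KO to WT ratios of 0.04 and -0.52 on the arrays of cortex and -0.25 and -0.52 on those of hippocampus. In both tissues the second array was thus lower than the first for this list and for Gadd45b. Gadd45g, with -0.70 and -0.64 in cortex and -0.47 and -0.59 in hippocampus, was low on the first cortex array as well. The part of the activity-regulated genes in these ratios was not tested.

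Gadd45a had ratios of 0.04 and -0.16 on the arrays of cortex and -0.11 and -0.15 on those of hippocampus. The samples of KO and WT cortex overlapped, with 8.56 and 8.53 in KO against 8.52 and 8.68 in WT, and the mean ratio over both tissues was -0.10 ± 0.05 (limma adjusted p = 0.277, 95% interval -0.24 to 0.05). With median centring in place of loess it was -0.47 and passed (limma adjusted p = 0.00132), as did 62.7% of all genes.

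**Figure D1:**
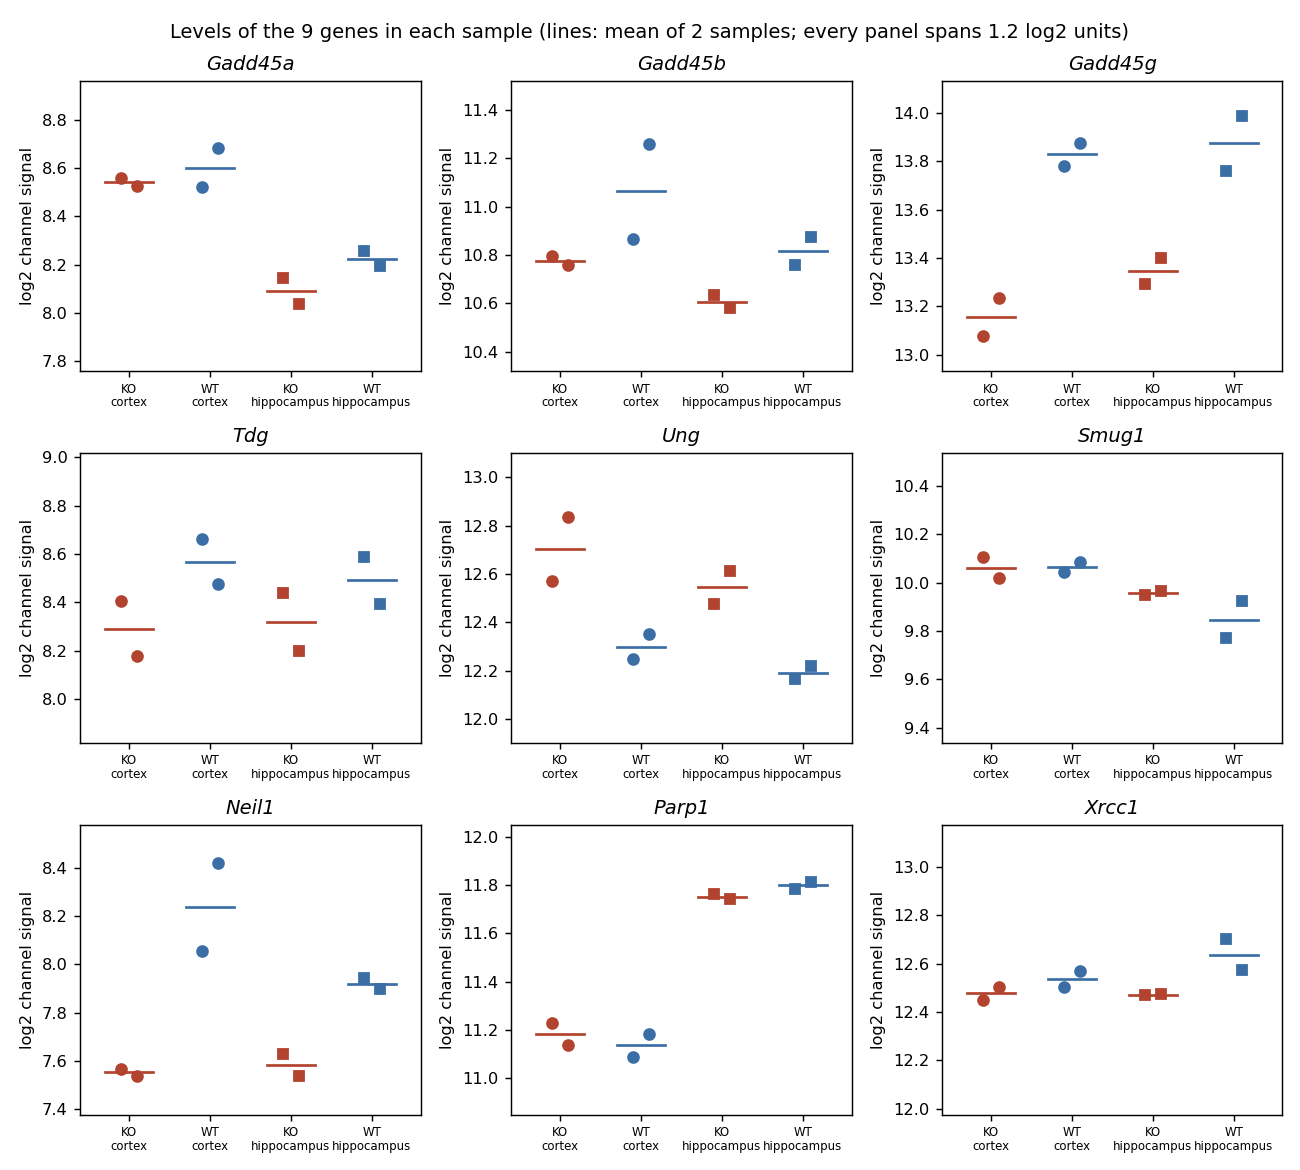
Log2 channel signal (y axis) of the brightest probe of each of the 9 genes in the 8 samples, with KO in red left of WT in blue, cortex as circles and hippocampus as squares; each point is 1 sample and each line the mean of 2. Gadd45g and Neil1 lie lower in KO than in WT in both tissues, Ung lies higher, and Parp1 and Gadd45a separate the tissues rather than the genotypes.

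Among the glycosylases, 3 of 4 were called in the mean of both tissues: Neil1 and the brightest Tdg probe lower and Ung higher in KO. Smug1 was not called. Over all 9 genes, 4 were called (Gadd45g, Neil1, Tdg and Ung), against 10.9% of all genes tested (1829 genes). Of all genes, 7.12% were called higher in KO and 3.78% lower, against 1 and 3 of the 9. Higher calls thus made up 65.3% of all calls, and 45.1% when arrays were centred on their medians in place of loess. The median ratio of the 9 genes was -0.11, against 0.03 over all genes tested. None of the 9 was called by limma within cortex, where 0.0596% of all genes were (10 genes), or within hippocampus, where 0.0179% were (3 genes). In each tissue 4 of the 9 had an unadjusted p under 0.05, as had 21.1% of all genes in cortex and 23.7% in hippocampus. A fit of the single channels without the array called 2 of the 9 in cortex (Gadd45g and Neil1) and 0 in hippocampus, beside 1.76% and 2.69% of all genes. When any 1 of the 4 arrays was left out, 0 of the 9 genes and at most 1 gene of all were called in the mean of both tissues. The 4 calls also ended when outlying local backgrounds were kept as deposited (adjusted p = 0.107 for Gadd45g, 0.171 for Neil1, 0.221 for Tdg and 0.237 for Ung).

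Neil1 had log2 signals of 7.57 and 7.54 in KO cortex, against 8.06 and 8.42 in WT cortex, and of 7.63 and 7.54 in KO hippocampus, against 7.94 and 7.90 in WT hippocampus. All 4 KO samples lay below all 4 WT samples. Neil1 fell by 0.51 ± 0.08 over both tissues (limma adjusted p = 0.0352, 95% interval -0.72 to -0.30). The array ratios were -0.49 and -0.88 in cortex and -0.31 and -0.36 in hippocampus. The signal was near background in WT: its unnormalised signal was 199.6 to 230.3 in KO and 363.4 to 443.9 in WT, beside the negative controls given above, and it was well above background in 4 of 4 KO samples and 3 of 4 WT samples. The size of the ratio varied with the processing, with -0.26 when outlying local backgrounds were kept, -0.81 from the scanner software's processed signals and -1.10 when arrays were centred on their medians in place of loess.

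The brightest Tdg probe gave -0.25 and -0.30 on the arrays of cortex and -0.15 and -0.19 on those of hippocampus. Its log2 signals were 8.41 and 8.18 in KO cortex against 8.66 and 8.48 in WT cortex, and 8.44 and 8.2 in KO hippocampus against 8.59 and 8.39 in WT hippocampus. KO and WT overlapped in hippocampus and did not in cortex, and each array gave a ratio below 0. Over both tissues this probe fell by 0.22 ± 0.04 (limma adjusted p = 0.0483), and its ratio was -0.44 from processed signals and -0.59 with median centring. The other probes of the gene were well above background in 4 of 4 KO samples and 0 of 4 WT samples, so their KO to WT ratios are not measured on both sides. Probe A_55_P2121364 gave 0.06 and 0.02 in cortex and 0.21 and -0.01 in hippocampus (mean 0.07 ± 0.06, adjusted p = 0.44). Probe A_66_P116265 gave 0.25 and 0.95 in cortex and 0.22 and 0.78 in hippocampus (mean 0.55 ± 0.15, adjusted p = 0.0787), but its level in KO lay below the lowest signal well above background in WT, which leaves no fold. The brightest probe is the 1 of the 3 whose listed transcripts include that of the pseudogene Tdg-ps2, so its signal may be shared with that transcript. The call of Tdg therefore rests on this probe alone.

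Ung had log2 signals of 12.57 and 12.84 in KO cortex, against 12.25 and 12.35 in WT cortex, and of 12.48 and 12.61 in KO hippocampus, against 12.17 and 12.22 in WT hippocampus. All 4 KO samples lay above all 4 WT samples. The single Ung probe rose by 0.38 ± 0.05 over both tissues (limma adjusted p = 0.0325, 95% interval 0.24 to 0.52). The array holds 51 probes with 20 or more bases of GT repeat, a set defined after the sequence of the Ung probe had been seen, and 50 of them were measured. Their median ratio was 0.41 (range 0.26 to 0.52), all 50 were above 0, and all 50 were called higher. Of all 26016 probes well above background in at least 1 group, 57% were above 0, and 2144 were called higher. Ung had 0.32 on the first cortex array, where the median of the 49 other GT-repeat probes was 0.35, and 0.49 on the second, where it was 0.53. On the arrays of hippocampus Ung had 0.31 against a median of 0.32 and 0.40 against 0.42. Less the median of these probes, the Ung ratio over both tissues was -0.03 (limma adjusted p = 0.716), so the probe did not differ beyond its error from other probes that share the repeat and belong to other genes. A change of Ung transcripts cannot be told apart from the behaviour of the repeat with this probe.

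**Figure D2:**
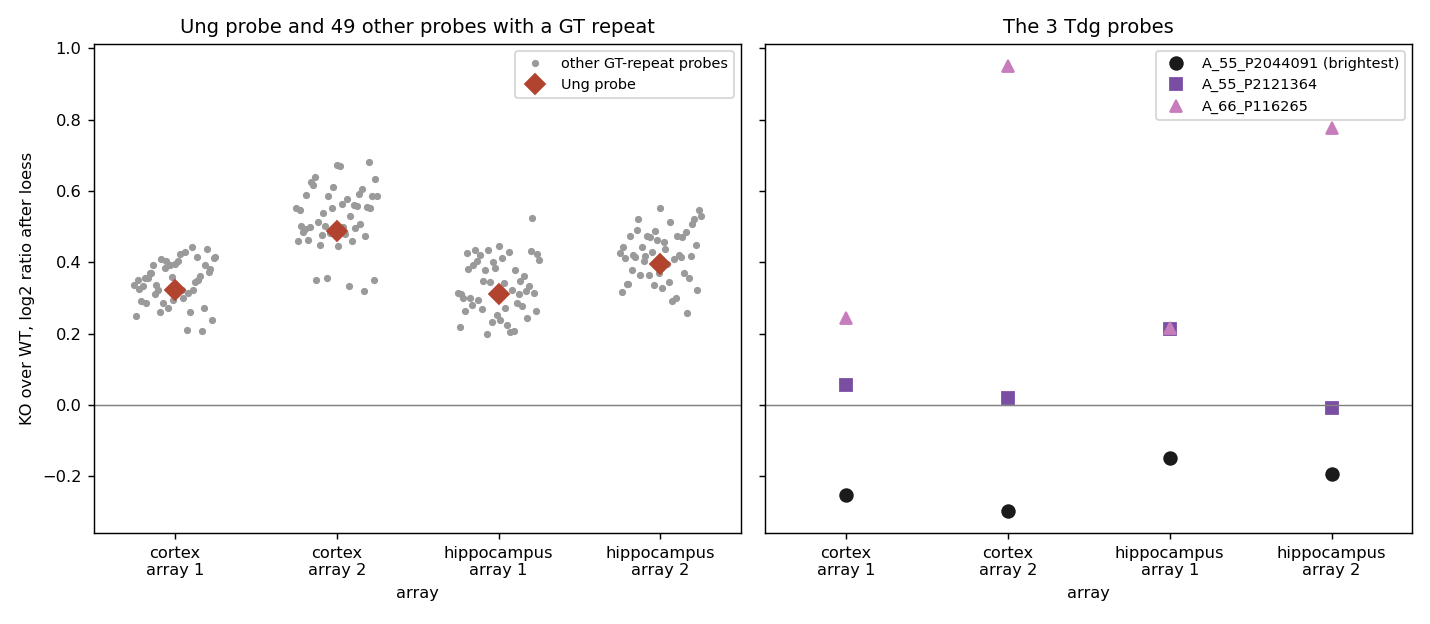
KO over WT log2 ratios (y axis) on each of the 4 arrays (x axis). On the left, the Ung probe (red diamond) lies within the 49 other probes that hold a GT repeat (grey points) on every array; on the right, the brightest Tdg probe (black) lies below 0 on all 4 arrays, while the points of the other 2, whose WT signal was dim on every array, have no measured direction.

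Smug1 had ratios of 0.06 and -0.07 on the arrays of cortex and 0.18 and 0.04 on those of hippocampus for its brightest probe. The mean of both tissues was 0.05 ± 0.05 (limma adjusted p = 0.513, 95% interval -0.09 to 0.19). Its other probe was not well above background in any sample and has no measured direction.

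Neither of the strand-break genes was called. Parp1 had 0.14 and -0.05 on the arrays of cortex and -0.03 and -0.07 on those of hippocampus. Its mean of both tissues had a 95% interval of -0.14 to 0.14 (limma adjusted p = 0.997). Xrcc1 had -0.05 and -0.07 in cortex and -0.23 and -0.10 in hippocampus. Its KO samples lay below its WT samples in hippocampus and overlapped with them in cortex, and the mean of both tissues was -0.11 ± 0.05 (adjusted p = 0.182, 95% interval -0.24 to 0.01).

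**Figure D3:**
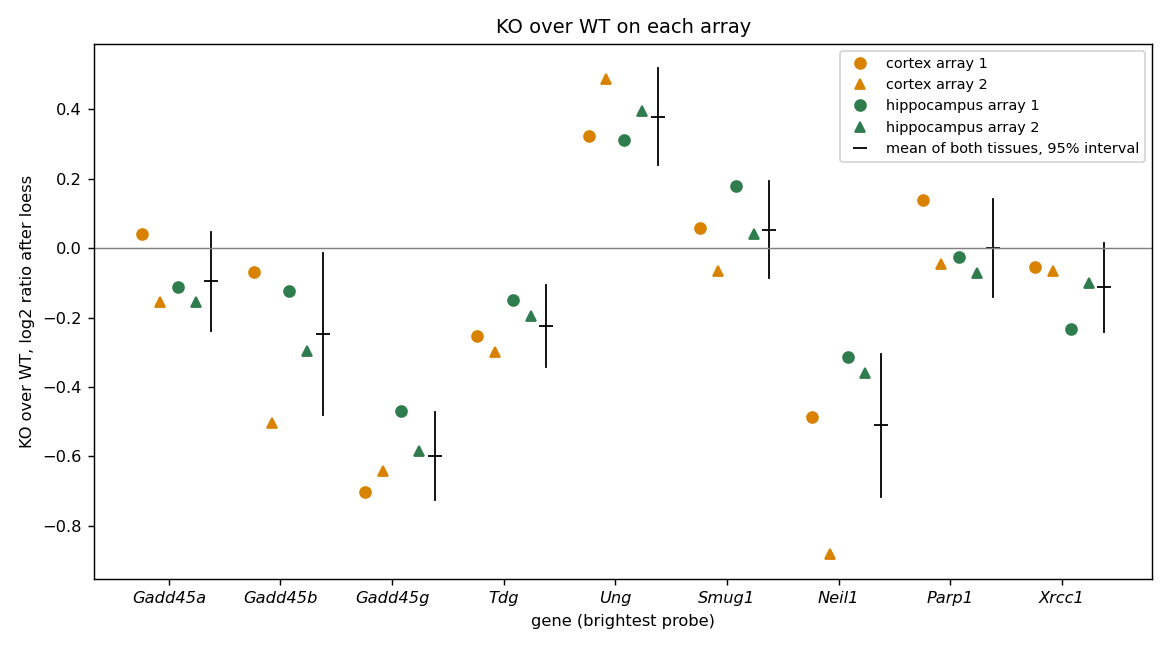
KO over WT log2 ratio (y axis) of the brightest probe of each of the 9 genes (x axis) on the 4 arrays, with cortex in orange and hippocampus in green; the black mark and bar give the mean of both tissues and its 95% interval. Gadd45g, Neil1 and the brightest Tdg probe lie below 0 and Ung above 0 on all 4 arrays. Gadd45b and Xrcc1, which were not called, also lie below 0 on all 4, while the arrays of Gadd45a, Smug1 and Parp1 fall on both sides of 0.

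The KO to WT ratios were then compared between tissues, where a dye bias that is equal on all arrays cancels. None of the 9 genes passed, nor did any gene of the array (0% of genes, with 749 genes and none of the 9 at an unadjusted p under 0.05 in limma). Neil1 had the widest gap, with a ratio lower in cortex than in hippocampus by 0.35 ± 0.16 (log2 difference -0.35, adjusted p = 1, 95% interval -0.76 to 0.06). For Gadd45g the difference was -0.15 ± 0.10 (95% interval -0.40 to 0.11).

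Cortex and hippocampus differed in the level of Parp1 and Gadd45a, in opposite directions and in both genotypes. These comparisons set samples of 1 dye against each other. In KO, 14.8% of all genes were called (7.54% higher and 7.29% lower in cortex), and in WT 15% were (7.2% higher and 7.77% lower), against 2 of the 9 genes in each, 1 in each direction. Parp1, a main source of poly(ADP-ribose), had log2 signals of 11.23 and 11.14 in KO cortex against 11.76 and 11.74 in KO hippocampus. In WT it had 11.09 and 11.18 in cortex against 11.79 and 11.81 in hippocampus. The tissues did not overlap, and the SD within a group was 0.02 to 0.07 (n = 2). Parp1 was lower in cortex by 0.57 ± 0.07 in KO (log2 ratio -0.57, limma adjusted p = 0.00302) and by 0.66 ± 0.07 in WT (log2 ratio -0.66, adjusted p = 0.00156). The call in WT was kept under every alternative tried, and the call in KO under all but 1, as it ended without cortex replicate 2 (adjusted p = 0.0625).

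Gadd45a, a p53-inducible member of its family, had 8.56 and 8.53 in KO cortex against 8.14 and 8.04 in KO hippocampus, and 8.52 and 8.68 in WT cortex against 8.26 and 8.19 in WT hippocampus. It was higher in cortex by 0.45 ± 0.08 in KO (limma adjusted p = 0.0128) and by 0.37 ± 0.08 in WT (adjusted p = 0.0259). Both calls ended when any 1 array was left out, with ratios of 0.40 to 0.50 in KO and 0.29 to 0.46 in WT. The remaining genes were not called. Smug1 had a ratio of 0.11 ± 0.08 in KO and 0.22 ± 0.08 in WT (limma adjusted p = 0.452 and 0.116). Neil1 had -0.03 ± 0.12 in KO and 0.32 ± 0.12 in WT (adjusted p = 0.91 and 0.137). Gadd45b had 0.17 in KO and 0.25 in WT, and Gadd45g had -0.19 in KO and -0.05 in WT, each with a 95% interval that holds 0. Tdg, Ung and Xrcc1 had ratios between -0.03 and 0.16 in KO and between -0.10 and 0.11 in WT (adjusted p at least 0.381).

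**Figure D4:**
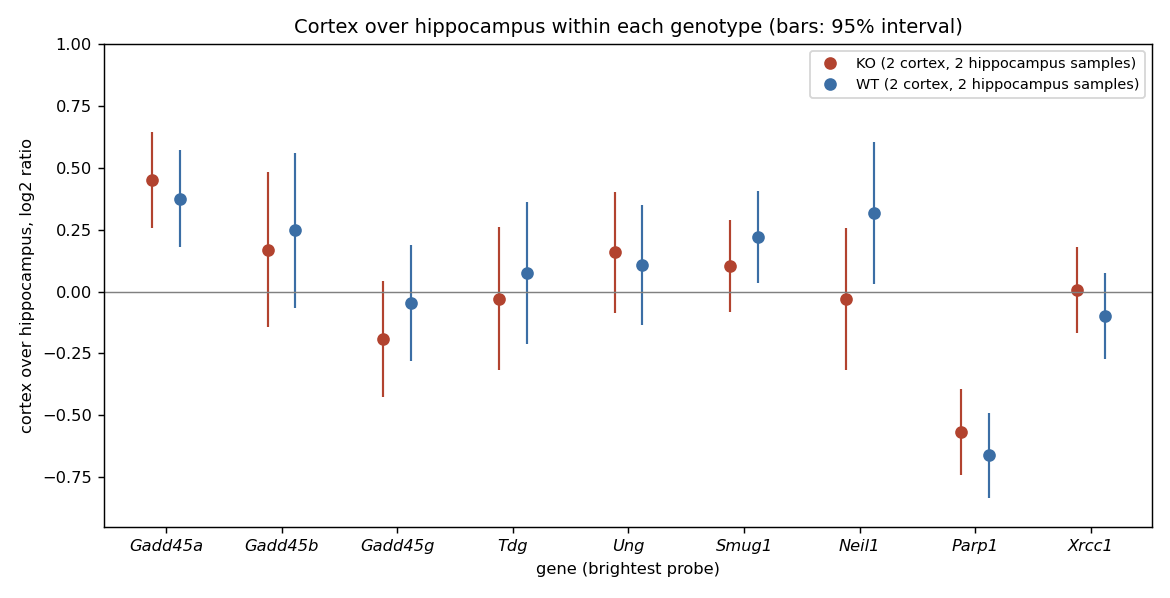
Cortex over hippocampus log2 ratio (y axis) of the brightest probe of each of the 9 genes (x axis), in KO (red) left of WT (blue), with 95% intervals from the fit over all 8 samples. Parp1 lies below 0 and Gadd45a above 0 in both genotypes, with intervals that do not reach 0.

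Of 28 other base excision repair genes, 26 were tested. In the mean of both tissues 2 were called higher in KO and 0 lower, beside 7.12% and 3.78% of all genes, so the share called higher was near that of all genes. Of the 26, 13 were above 0 and 13 below 0, with a median of 0.01. Tdp1, which removes topoisomerase adducts from DNA ends, rose by 0.44 ± 0.08 (limma adjusted p = 0.041), and Aplf, a factor recruited by poly(ADP-ribose), rose by 0.23 ± 0.04 (adjusted p = 0.0471). Between tissues 0 were higher and 2 were lower in cortex in each genotype. Of all genes, 7.54% were higher and 7.29% lower in KO, and 7.2% and 7.77% in WT. Rpa1, a subunit of the single-strand binding protein, had -0.40 ± 0.07 in KO and -0.41 ± 0.07 in WT (adjusted p = 0.00876 and 0.00764). The DNA ligase gene Lig3, whose product binds XRCC1, had -0.37 ± 0.09 in KO and -0.33 ± 0.09 in WT (adjusted p = 0.0306 and 0.0444). None of the 26 was called within cortex or within hippocampus for KO over WT. The lowest unadjusted p belonged to Tdp1 and Rfc1 in cortex, with 0.39 ± 0.11 and -0.22 ± 0.06 (limma adjusted p = 0.16 and 0.165), and to Tdp1 and Aplf in hippocampus, with 0.49 ± 0.11 and 0.28 ± 0.06 (adjusted p = 0.114 for both).

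Cytosine deaminases have been proposed as another route into base excision repair. Of 5 genes, Apobec1 and Apobec3 were tested and neither was called. Apobec3 had 0.21 ± 0.06 over both tissues (limma adjusted p = 0.0878) and Apobec1 had -0.01 ± 0.08 (adjusted p = 0.916).

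Of 15 genes for partners of GADD45 proteins, 14 were tested. Over both tissues 1 was called higher and 1 lower in KO, beside 7.12% and 3.78% of all genes. In the mean of both tissues Ccnb1, the cyclin whose kinase GADD45 proteins inhibit, rose by 0.54 ± 0.06 (limma adjusted p = 0.0257). Map2k7, a kinase upstream of JNK, fell by 0.25 ± 0.04 (adjusted p = 0.0412). Between tissues 1 of the 14 was called higher and 1 lower in cortex in KO, beside 7.54% and 7.29% of all genes. In WT 2 were higher and 1 lower, beside 7.2% and 7.77% of all genes. The cell cycle inhibitor gene Cdkn1a was higher in cortex by 1.19 ± 0.09 in KO and by 1.12 ± 0.09 in WT (adjusted p = 0.000345 and 0.000403). Map3k4, the p38 pathway kinase that GADD45 proteins activate, was lower in cortex (-0.34 ± 0.08 in KO and -0.33 ± 0.08 in WT, adjusted p = 0.0284 and 0.032). Ccnb1 was higher in cortex in WT (0.51 ± 0.08, adjusted p = 0.00698).

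All 20 genes listed as p53 targets, the class to which Gadd45a belongs, were tested. Over both tissues 1 was called higher and 1 lower in KO, beside 7.12% and 3.78% of all genes. In the mean of both tissues Btg2, an antiproliferative gene that neurons also induce on activity, fell by 0.90 ± 0.05 (limma adjusted p = 0.0131) and the polo-like kinase gene Plk2 rose by 0.29 ± 0.05 (adjusted p = 0.0371). In KO 3 of them were higher in cortex and 0 lower, beside 7.54% and 7.29% of all genes. Besides Cdkn1a these were Zmat3 with 0.36 ± 0.08 and Phlda3 with 0.52 ± 0.13 (adjusted p = 0.0212 and 0.0364). In WT 3 were higher and 1 lower, beside 7.2% and 7.77% of all genes. Zmat3 had 0.37 ± 0.08, Btg2 had 0.75 ± 0.17 and Sesn2 had -0.41 ± 0.09 (adjusted p = 0.0201, 0.0278 and 0.0284). Of 19 genes of nucleotide excision repair, in which GADD45 proteins also act, 1 was called higher and 1 lower in KO over both tissues. The shares of all genes were 7.12% and 3.78%. Gtf2h4, which encodes a TFIIH subunit, had -0.26 ± 0.05 for KO over WT in the mean of both tissues (adjusted p = 0.0472). In KO, Gtf2h2 was lower in cortex (-0.41 ± 0.09, adjusted p = 0.0277). It was the 1 gene of the 19 called lower there, and 0 were called higher, beside 7.29% and 7.54% of all genes. In the mean of both tissues the medians of these lists were 0.02 for the GADD45 partners, 0.01 for the p53 targets and 0.05 for nucleotide excision repair, beside 0.03 for all genes.

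Markers of other cells and regions were set beside the 9 genes. The median KO to WT ratio of 15 choroid plexus markers was 0.51 and 2.07 on the arrays of cortex and 0.11 and -2.77 on those of hippocampus, and that of 10 thalamic markers was -0.03, 0.03, -0.15 and -1.46 in the same order. Astrocyte markers (10 genes) ranged from -0.18 to 0.03, microglia markers (14 genes) from -0.25 to 0.05 and neuron markers (11 genes) from -0.01 to 0.13. Oligodendrocyte markers (15 genes) ranged from -0.45 to 0.12 and striatal markers (11 genes) from -0.47 to 0.20, while endothelial and mural markers (14 genes) lay below 0 on all 4 arrays (-0.30 to -0.02). Summed on the linear scale, the microglia markers were 121600 to 146200 in KO and 126600 to 143400 in WT, and the neuron markers were 347800 to 389300 in KO and 322100 to 355600 in WT. Between tissues, 10 of 11 striatal markers were called higher in cortex in each genotype, beside 7.54% and 7.2% of all genes in KO and WT. Cortex over hippocampus medians were 1.84 in KO and 2.56 in WT for striatal, 2.04 and -0.10 for choroid plexus and 0.605 and -0.307 for thalamic markers. In WT hippocampus the choroid plexus sums were 5802 and 279600, and the thalamic sums 12860 and 37140. The part of these cells in the ratios, between genotypes or between tissues, was not tested.

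For 8 of the 9 genes, the gene whose log2 signal followed it most closely over the 8 samples is given as a description, since the samples share arrays, dyes and tissues in pairs. Gadd45g was followed by Psmd7, a proteasome subunit gene (Pearson r = 0.994), and Gadd45b by Clec11a (r = 0.983). Parp1 was followed by Fgf10 (r = 0.996). Tdg was followed by Fgd6 (r = 0.983), Neil1 by 1700064H15Rik (r = 0.977), Smug1 by 2810408A11Rik (r = 0.988) and Xrcc1 by Dhx30 (r = 0.977). The closest gene to Ung was Ifitm7 (r = 0.990), whose probe also holds a GT repeat.

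TET1 is known to bind promoters rich in CpG, so the promoters of the 9 genes were read from RefSeq (build GRCm38.p6), where all 9 matched by symbol. Over 250 bases before and 50 bases after the start, they held 7 (Xrcc1) to 26 (Tdg) CpG, and 8 of the 9 exceeded the median of 7 over 32851 promoters. Of all these promoters, 47.9% held fewer CpG than Xrcc1 and 83.1% fewer than Tdg. Gadd45g had 21 and Gadd45b had 24. The 250 bases before the start of these 2 genes are shown with each CpG in capitals, because Gadd45g was called and its paralogue Gadd45b was not.
Gadd45g, chr13:51846425-51846674, plus strand: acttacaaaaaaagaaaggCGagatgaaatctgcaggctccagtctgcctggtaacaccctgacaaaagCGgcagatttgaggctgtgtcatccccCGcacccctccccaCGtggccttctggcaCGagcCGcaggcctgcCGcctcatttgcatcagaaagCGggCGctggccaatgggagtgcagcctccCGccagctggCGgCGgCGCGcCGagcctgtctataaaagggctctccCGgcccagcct
Gadd45b, chr10:80929841-80930090, plus strand: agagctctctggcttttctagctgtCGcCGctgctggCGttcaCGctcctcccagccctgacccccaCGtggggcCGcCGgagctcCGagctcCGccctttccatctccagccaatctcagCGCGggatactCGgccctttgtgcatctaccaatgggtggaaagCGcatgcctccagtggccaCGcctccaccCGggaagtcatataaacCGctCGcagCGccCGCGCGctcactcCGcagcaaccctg
Within the 300-base windows, searched on both strands, the cAMP response element TGACGTCA was found in 1 of 9 promoters (Tdg) and in 1.79% of all promoters. The E-box CACGTG was found in 4 of 9 (Gadd45b, Gadd45g, Tdg and Parp1) and in 7.15% of all, and the AP-1 motif TGANTCA in 0 of 9 and in 7.81% of all. The cAMP response element and the E-box each hold a CpG, and the shares of all promoters were not matched for CpG content. They therefore do not show an excess of a motif in the 9 promoters. These matches describe the letters of the windows, and neither binding nor methylation was measured here.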

How the data were processed

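The 8 samples were the channels of 4 two-colour Agilent arrays, since the files of the KO and WT sample of each tissue and number were byte-identical in 4 of 4 pairs. All arrays lay on 1 slide and came from 1 scan, so neither could be tested as a batch. Labelling used 0.5 µg of total RNA, per the labels. The deposited intensity values come from the scanner software Feature Extraction (version 10.1.1.1, per the file headers), and the same files hold probe sequences and mm9 positions. The authors' deposited log2 values per channel were used as an alternative. Their column medians were 8.21 to 8.25, and their ratios had r = 0.938 to 0.967 across spots with those computed here. The submitters' processing notes name limma, whose role is not given in the sources used here.

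Mean signals were corrected with normexp (offset 50) against the background median. The background of spots marked as outlying in local background was replaced by the array median. Loess (span 0.3) followed, with the 1377 control spots of 44397 at weight 0. Spots of 1 probe were averaged and outlying spots left out, which removed 29 genes. Each gene stood for its brightest probe. It entered the tests if that probe was marked well above background on both arrays in 1 group or more. limma 3.58.1 (R 4.3.3) fitted the 4 log2 ratios with 1 mean per tissue (degrees of freedom: 2 residual, 2.62 prior). Tissues were set against each other within a dye, on 8 channel values after Aquantile normalisation, with the array as a random block (correlation 0.191, degrees of freedom 4 residual and 2.92 prior). P-values were adjusted by Benjamini-Hochberg over 16773 genes, and a gene was called at an adjusted p under 0.05. Errors beside log2 values are standard errors of the fit. Levels of different probes were not compared. For a bound, the mean of the brighter group was divided by the dim group's mean floor (on each array its own level or the lowest well above background, whichever was higher), and it is open to dye bias.

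The 9 genes, the gene lists and the replacement of outlying backgrounds were chosen with earlier results of these data known. Named were all 9 genes with every probe, of each pathway list the called genes (at most 5 of lowest p per comparison, or the 2 of lowest p where none was called), and for each of the 9 the gene with the highest Pearson r. The activity-regulated genes named and the GT-repeat set were chosen after their values were seen. The fits were tested on simulated data drawn without dye bias or shared animals, so that test does not cover these limits of the design. Alternatives were other background, normalisation, filter, probe, prior and block choices and leaving out each array. The number of arrays limits the precision. Among the genes picked by the naming rule, 2 are not reported here.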

Additional observations from a re-analysis of the deposited data

How the results depend on the processing

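Recomputed ratios were counted for all 9 genes in the mean of both tissues and for selected genes in the other comparisons. Of these, 303 kept their direction and their side of the threshold, 35 kept the direction but lost the call, 6 gained one and 17 changed direction. Gadd45g kept its direction in all 14 alternatives in the mean of both tissues (-0.66 to -0.34) and its call in 9, and Neil1 kept its direction in all 13 (-1.10 to -0.26) and its call in 8. Ung kept its call in 9 of 15 and changed direction in 1. Tdg kept its call in only 4 of 16 and changed direction in 3. Its call ended, among others, with the authors' values, the replicate block and the intensity trend. Of the 9 genes, the 4 called in that mean became 0 with every local background kept and 0 to 0 when 1 array was left out. Within cortex, 0 became 1 with an intensity trend and robust estimation, 2 in single channels without a replicate block and 5 with median centring. These settings called 0.167%, 1.76% and 43.9% of all genes. Within hippocampus 0 became 1 with the trend and 5 with median centring, beside 0.358% and 49.9% of all genes. Between tissues, the 2 called in KO became 0 to 1 without 1 array. The 2 called in WT became 1 with every background kept, 1 to 1 without 1 array and 1 when only the samples of this dye were fitted.

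Among the ratios counted above, directions changed as follows, and the cause was not tested unless the alternative itself shows it. In the mean of both tissues, the mean of probes gave Tdg 0.131 and Smug1 -0.269 (limma adjusted p = 0.0412), as it takes in their dim probes. The other Tdg probes, dim in WT and chosen after seeing the data, gave 0.07 and 0.547, and Ung less the GT-repeat median, chosen likewise, gave -0.026. Parp1 had 0.02 in the authors' table, 0.126 with median centring and -0.047 to 0.046 without 1 array, and Xrcc1 had 0.077 with median centring. With every background kept, Neil1 had 0.068 for the difference between tissues and 0.272 for cortex over hippocampus in KO, where processed signals gave 0.005 and leaving out 1 array -0.078 to 0.015. Gadd45g in WT, cortex over hippocampus, had 0.014 with every background kept and -0.158 to 0.066 without 1 array.

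Over all genes, the calls in the mean of both tissues (1829) ranged from 0 without a hippocampus array to 10516 with median centring, with 3 when every background was kept and 1204 from processed signals. In cortex 10 calls became 0 to 7360 and in hippocampus 3 became 0 to 8365. Between tissues, fits without 1 array made 644 to 1935 calls in KO, against 2487 with all arrays, and 723 to 1980 in WT, against 2511. Of the calls in KO, 50.9% were higher in cortex, and 40.1% with every background kept. The replicate number was not shown to pair the samples: deviations of same-numbered samples correlated between tissues with r = 0.244 in KO and -0.0765 in WT. The fit with the replicate block called 3 of the 9 genes in the mean of both tissues (2469 genes in all) and changed no other count of the 9. Without 1 array or with the block, the array correlation could not be estimated and that of all 8 samples was kept, and a lone sample is assumed to vary like the other groups. Neil1 did not pass the strict filter on dim probes. Signal near background in WT limits Neil1 and Tdg.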
